A study of Mus musculus with 4 samples.

Results

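The genes examined are 43 mouse genes of the cell cycle and of DNA replication, from the loading of the replicative helicase to chromosome segregation. Each accessible region of the genome was given to the protein-coding gene whose span lay nearest to it, and a region belonged to the group if that gene was a member. By this rule 267 of the 91266 accessible regions were nearest to a member, and 41 of the 43 members had at least 1 region. The 2 without a region were Pcna, the sliding clamp of the replication fork, and Cdkn2d, an inhibitor of the kinases CDK4 and CDK6. Of all 21887 protein-coding genes, 16393 had a region. A region that overlapped the span of a gene, in full or in part, is counted as inside that gene.

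The regions came from ATAC-seq, in which a transposase cuts and tags open chromatin, of natural killer (NK) cells from the spleen of wild-type C57BL/6 mice, kept in culture with the cytokine interleukin-15. A high dose (HD) and a low dose (LD) of IL-15 were compared after 72 h, in 2 biological replicates per dose with about 75000 cells each. Genotype, strain, cell type and time were the same in all 4 cultures. The concentrations of the doses and the age and sex of the mice are not given in the sources used here. The deposited tables held the positions of the regions and the authors' deposited lists of regions called differentially accessible, named up and down, with no value per sample. There was therefore no replicate error to set a difference against, no test of the doses could be run, and sequencing depth is unknown. The sources used here do not name the dose that up and down refer to, so neither list is tied to a dose. In a bulk culture a change in the share of cells in a given state and a change of accessibility within each cell cannot be told apart.

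Of 6 genes that mark NK cells, namely Ncr1, Klrb1c, Itga2, Il2rb, Eomes and Tbx21, 6 had a region in the gene, and in the 5 with an entry in the promoter table a region covered the start site. Of marker genes of other cells, Cd3e, Cd14 and Epcam had 1 region each in the gene, and the start sites of Cd3e and Epcam, the 2 in the promoter table, were not covered. The part of other cells in the results was not tested.

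Cells enter the cycle when D-type cyclins with CDK4 or CDK6, and then E-type cyclins with CDK2, phosphorylate the retinoblastoma family of pocket proteins and so free E2F transcription factors, which switch on genes for DNA replication. Genes that peak later, in the passage to mitosis, are held down in resting cells through a promoter element called the CHR, which works with CCAAT boxes bound by NF-Y. CDK inhibitors of the Cdkn1 and Cdkn2 families act against these kinases. IL-15 is known as a cytokine that supports the survival and proliferation of NK cells.

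Promoters of members are shown first. Start sites could be placed for 36 of the 43 members, and the regions over them were in neither list. Over all genes, 0.923% of the regions over a start site were in either list. The other 7 members, Ccnd1 among them, had no entry in the promoter table. Each run is the 150 bases before the start site, 5′ to 3′, from the RefSeq promoter table of GRCm38.p6, and in these 6 genes all 150 bases lay inside an accessible region that neither list held. Capitals mark the motifs searched on both strands: an E2F site (TTTCCCGC, TTTCGCGC, TTTGCCGC or TTTGGCGC), a CHR (TTTGAA or TTCGAA) and a CCAAT box (CCAAT), each also as its reverse complement. Mcm6 and Orc1 stand for helicase loading, Cdc20 and Top2a for mitosis, Cdk1 for a promoter with all 3 kinds of motif, and Cdkn2b for the member with the most up regions.
Mcm6, chr1:128359706-128359855, minus strand: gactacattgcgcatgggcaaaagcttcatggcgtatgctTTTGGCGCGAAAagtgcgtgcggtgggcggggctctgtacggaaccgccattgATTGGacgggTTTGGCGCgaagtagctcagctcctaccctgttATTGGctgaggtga
Orc1, chr4:108579304-108579453, plus strand: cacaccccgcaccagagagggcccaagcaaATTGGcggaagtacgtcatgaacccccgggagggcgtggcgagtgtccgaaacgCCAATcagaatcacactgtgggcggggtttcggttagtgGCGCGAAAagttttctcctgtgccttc
Cdc20, chr4:118437344-118437493, minus strand: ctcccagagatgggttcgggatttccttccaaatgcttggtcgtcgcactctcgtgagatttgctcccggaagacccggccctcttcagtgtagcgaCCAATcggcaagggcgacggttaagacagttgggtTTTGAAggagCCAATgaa
Top2a, chr11:99024190-99024339, minus strand: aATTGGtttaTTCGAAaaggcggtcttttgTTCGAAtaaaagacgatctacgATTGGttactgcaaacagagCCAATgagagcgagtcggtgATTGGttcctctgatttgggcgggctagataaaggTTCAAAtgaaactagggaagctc
Cdk1, chr10:69352913-69353062, minus strand: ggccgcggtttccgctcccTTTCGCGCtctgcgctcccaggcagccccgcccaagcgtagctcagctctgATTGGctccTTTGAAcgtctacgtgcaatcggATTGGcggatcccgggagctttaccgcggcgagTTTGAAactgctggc
Cdkn2b, chr4:89311033-89311182, minus strand: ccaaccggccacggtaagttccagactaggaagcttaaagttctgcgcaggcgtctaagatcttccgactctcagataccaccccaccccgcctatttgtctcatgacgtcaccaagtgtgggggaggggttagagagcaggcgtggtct
The run of Mcm6 holds 3 E2F sites, 2 of which overlap, and 2 CCAAT boxes. In Orc1 the E2F site begins 27 bases before the start, and in Cdc20 the CHR begins 18 bases before it, with CCAAT boxes at 53 and 8 bases. The run of Cdkn2b holds no match.

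Among the 267 regions, 22 (8.24%, 95% Wilson interval 5.5 to 12.2) were in the authors' deposited up list, against 4.21% of all regions. In the down list there were 3 (1.12%, 0.383 to 3.25), against 1.40% of all regions. At least 1 up region was nearest to 9 of the 41 members with a region (22.0%), where the share over all genes with a region was 16.1%. A down region was nearest to 2 members, Cdk6 and E2f8 (4.88%), against 5.39% of all genes. Both also had up regions, so that 9 members had a listed region and 32 had regions in neither list. Intervals here cover counting error only, and neighbouring regions are not independent.

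The up regions were unevenly spread over the members. Cdkn2b, an inhibitor of CDK4 and CDK6, had 7 of its 19 regions in the up list. Mki67, which encodes the proliferation marker Ki-67, had 4 of 21, Ccnd1, the gene of cyclin D1, had 3 of 9, and E2f8, an atypical E2F that represses E2F targets, had 3 of 10. These 4 genes held 17 of the 22 up regions in 59 regions (28.8%). The other members held 5 up regions in 208 (2.4%). The 4 genes were singled out because they had the most up regions, so these shares are a description of the spread and support nothing further. Without Cdkn2b alone, 15 of 248 regions were up (6.05%).

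**Figure D1:**
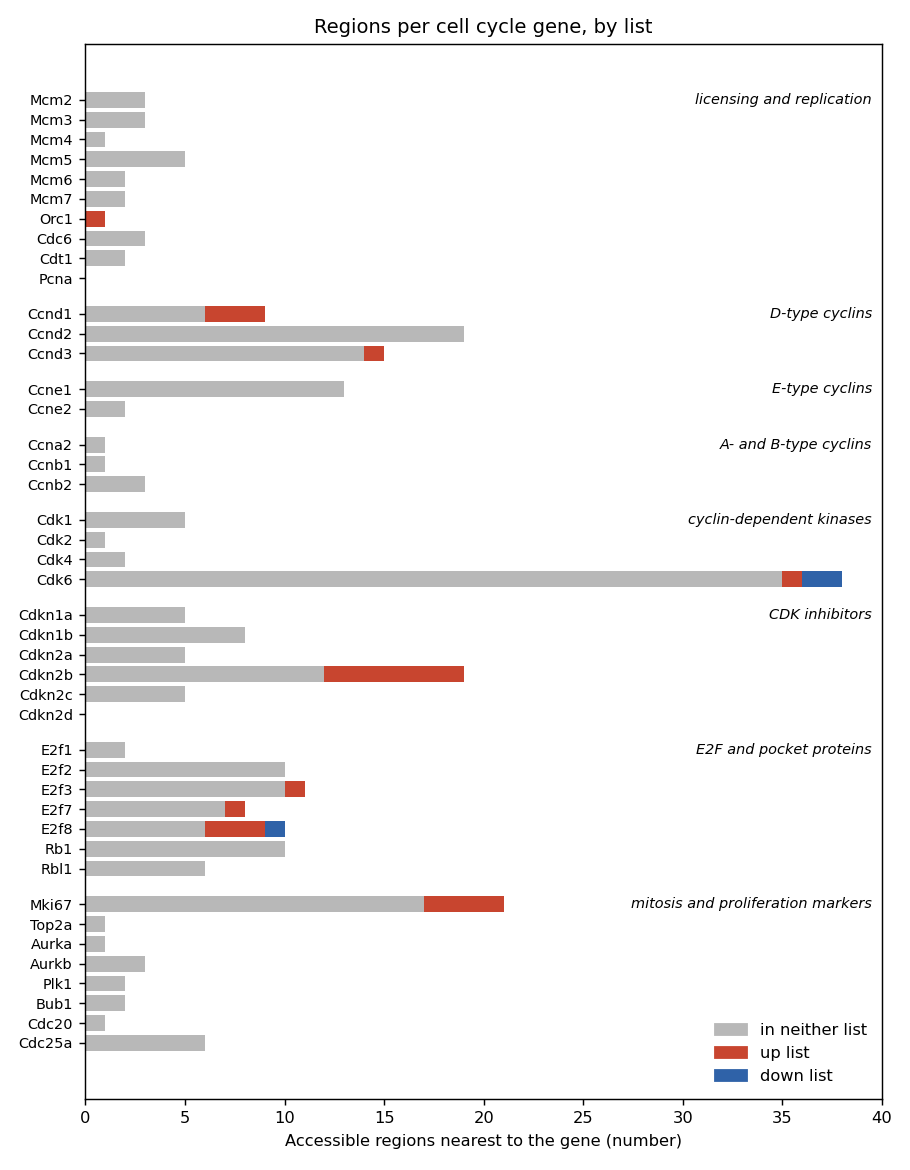
Number of accessible regions nearest to each of the 43 genes, grouped by role, with regions of the up list in red, of the down list in blue and of neither list in grey. Cdk6 had the most regions, 38, and Cdkn2b the most up regions, 7.

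The number of regions per gene ranged from 0 to 38, with a median of 3 over the members with a region and also of 3 over all genes with a region. Weighting all regions to the members' numbers of regions per gene gave 4.31% up, or 11.5 regions where the members had 22, and 1.44% down, or 3.84 where they had 3. Weighting by distance to the gene gave 4.47%, by width 4.21%, and by regions per gene and distance together 4.58%, or 12.2 regions. These are descriptions of the background and carry no test.

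The genes that load and run the replicative helicase had few regions, most of them in the gene. The 10 genes of this role, 9 of them with a region, had 22 regions, of which 68.2% lay inside the gene and 45.5% at a gene end, that is, within 1000 bp of an end of a protein-coding gene. Mcm5 had the most, 5, with widths from 201 to 820 bp. Mcm2 and Mcm3 had 3 each, Mcm6 and Mcm7 2 each, and Mcm4 1 of 412 bp. These 6 genes encode the ring of the replicative helicase, and none of their regions was listed. Cdc6 and Cdt1, which place that ring on origins, had 3 and 2 regions, none of them listed. Orc1, a subunit of the origin recognition complex, had a single region, chr4:108598333-108598652, and this region was in the up list. It was 320 bp wide and lay inside the gene, 17378 bp from its nearer end. The start site of Orc1 lay in another region of 1019 bp, chr4:108578824-108579842, which was in neither list. That region overlapped both Orc1 and Prpf38a and was given to Prpf38a because an end of that gene was nearer, so that the single region of Orc1 reflects the rule for ties. For Pcna the nearest region was 637 bp from the start site, was 399 bp wide and was given to Cds2.

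D-type cyclins, which couple mitogen signals to CDK4 and CDK6, had 43 regions over 3 genes, 4 of them up (9.3%, 3.68 to 21.6). Ccnd2 had the most of these, 19, from 150 to 1294 bp wide and up to 136884 bp from the gene, and none was listed. Ccnd3 had 15, all overlapping the gene, and 1 of them, chr17:47515476-47515884, was up. Its width was 409 bp and it lay 10425 bp from the nearer end of Ccnd3. Ccnd1 had 9, of which 3 were up. The first, chr7:144939549-144939935, was 387 bp wide and overlapped the higher-coordinate end of Ccnd1 (chr7:144929931-144939831), and it was the single listed region of any member at a gene end. The second, chr7:144943291-144943667, was 377 bp wide and 3.46 kb beyond that end, and the third, chr7:144991762-144992202, was 441 bp wide and 51.9 kb beyond it. Up regions thus made up 3 of the 5 regions in this stretch of 52.7 kb, and the regions of Ccnd1 farther out, up to 120049 bp away, were in neither list.

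E-type cyclins, the partners of CDK2 at the start of S phase, had 15 regions and A- and B-type cyclins, which act from S phase to mitosis, had 5, none of them listed. Ccne1 had 13, of which 12 lay outside the gene, up to 36152 bp away. The other overlapped the gene and covered its start site with a width of 1375 bp. Ccne2 had 2, both in the gene. Ccnb2 had 3, Ccna2 1 of 625 bp and Ccnb1 1 of 1057 bp. All 5 regions of the A- and B-type cyclins overlapped their genes.

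Among the cyclin-dependent kinases, Cdk6 stood out by number. It had 38 of their 46 regions, 30 of them inside its span of 190005 bp, with widths from 150 to 2909 bp. The widest covered the start site and was in neither list. Cdk6 had 2 down regions, both inside the gene: chr5:3425028-3425482, 455 bp wide, and chr5:3432748-3433920, 1173 bp wide. They were 7.26 kb apart with 1 region in neither list between them. A single Cdk6 region was up, chr5:3149833-3150246, 414 bp wide and 191 kb before the start of the gene. Thus Cdk6 had listed regions of both kinds, in different places. Cdk1, the kinase that drives mitosis, had 5 regions, Cdk4, which D-type cyclins activate, had 2, and Cdk2, which works with cyclins E and A, had 1, of 1227 bp. None of these was listed.

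CDK inhibitors had the largest up share of the 8 roles, 7 of 42 regions (16.7%, 8.32 to 30.6), and all 7 were those of Cdkn2b. No region of Cdkn1b (8 regions), Cdkn1a, Cdkn2a or Cdkn2c (5 each) was listed. Cdkn1a and Cdkn1b encode inhibitors of cyclin-CDK complexes. Cdkn2c encodes an inhibitor of CDK4 and CDK6, and Cdkn2a encodes another such inhibitor along with a protein that acts on the p53 pathway. The region nearest to the start site of Cdkn2d was 4032 bp away, was 515 bp wide and was given to Kri1. A share of 19.0% of the regions of this role lay inside the gene, against 61.1% of all regions.

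The 7 up regions of Cdkn2b lay before its start, beyond the higher-coordinate end of the gene (chr4:89306289-89311032, minus strand). By position they were chr4:89351006-89351868 at 40.0 kb, chr4:89359436-89359947 at 48.4 kb, chr4:89368986-89369514 at 58.0 kb and chr4:89372331-89372973 at 61.3 kb. Beyond these came chr4:89400285-89400739 at 89.3 kb, chr4:89478709-89479453 at 168 kb and chr4:89485882-89486422 at 175 kb. All 7 lay within the span of a long non-coding RNA gene, Gm12610 (chr4:89295180-89518621). From the first to the last there were 17 regions in 135 kb, 7 up and 0 down (41.2% up). The up regions of this stretch were 455 to 863 bp wide, with a median of 541 bp, and those in neither list were 154 to 332 bp wide, with a median of 218 bp, so that the widths did not overlap. In the stretches of the up regions of Ccnd1, E2f8 and Mki67 the widths did overlap: up regions were 377 to 441, 246 to 784 and 288 to 691 bp wide, and those in neither list 402 to 639, 335 to 1100 and 151 to 925 bp. Over all regions of the series, 0.29% of those from 150 to 197 bp were up, 8.79% of those from 481 to 590 bp, and 0.79% of those of 975 bp or wider. The region over the start site of Cdkn2b, 1054 bp wide, was in neither list.

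The E2F and pocket protein genes had 57 regions, 5 up and 1 down. E2f8 had 3 up and 1 down, all of them before its start (gene span chr7:48866429-48882073, minus strand). In order from the gene they were the up region chr7:48888778-48889163 at 6.71 kb, the down region chr7:48900273-48901147 at 18.2 kb, and the up regions chr7:48918521-48918766 at 36.4 kb and chr7:48919137-48919920 at 37.1 kb. The last pair was separated by 370 bp. The down region, 875 bp wide, was the widest of the 4, and the up regions were 386, 246 and 784 bp wide. Within this 31.1 kb there were 8 regions.

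E2f7, the other atypical E2F, had 8 regions, of which chr10:110762628-110762906, 279 bp wide and inside the gene at 17189 bp from its nearer end, was up. Of the 25 listed regions of members, this was the one for which sequence was at hand, since 192 of its bases lie in the promoter window of the long non-coding RNA gene Gm51780. They are printed from GRCm38.p6 (RefSeq), 5′ to 3′ on the strand of that gene, with no capitals because none of the 3 motifs matched.
E2f7 up region, chr10:110762628-110762819, minus strand: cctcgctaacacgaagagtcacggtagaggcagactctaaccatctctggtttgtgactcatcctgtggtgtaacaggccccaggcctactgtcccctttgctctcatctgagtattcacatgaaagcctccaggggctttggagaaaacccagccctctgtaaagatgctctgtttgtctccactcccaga
The stretch had a GC content of 52.1% and 3 CpG dinucleotides. E2f3, an activator E2F, had 11 regions, and the up region among them, chr13:29903198-29903695, was 498 bp wide and lay 2.88 kb past the end of the gene. E2f2, also an activator, had 10 regions and E2f1 had 2, with none listed. Rb1, which encodes the retinoblastoma protein, had 10 and Rbl1, a related pocket protein, had 6, also with none listed.

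Among the genes of mitosis and proliferation, up regions were nearest to Mki67 and to no other. Its 4 were chr7:135794281-135794568 at 77.8 kb, chr7:136255453-136256143 at 539 kb, chr7:136294514-136294810 at 578 kb and chr7:136298853-136299352 at 582 kb before the start (gene span chr7:135689784-135716450, minus strand). Of these, 3 lay 539 kb or more from the gene and nearest, among genes of any kind, to the long non-coding RNA gene C030029H02Rik. Assignment to Mki67 therefore rests on the lack of a nearer protein-coding gene. The region over the Mki67 start site, 1242 bp wide, was in neither list. Cdc25a, a phosphatase that activates CDKs, had 6 regions, and Aurkb, a kinase of chromosome segregation, had 3. Plk1, a mitotic kinase, and Bub1, a spindle checkpoint kinase, had 2 each. Top2a, which untangles DNA, had 1 of 868 bp, Cdc20, an activator of the anaphase-promoting complex, 1 of 945 bp, and Aurka, a spindle pole kinase, 1 of 439 bp.

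**Figure D2:**
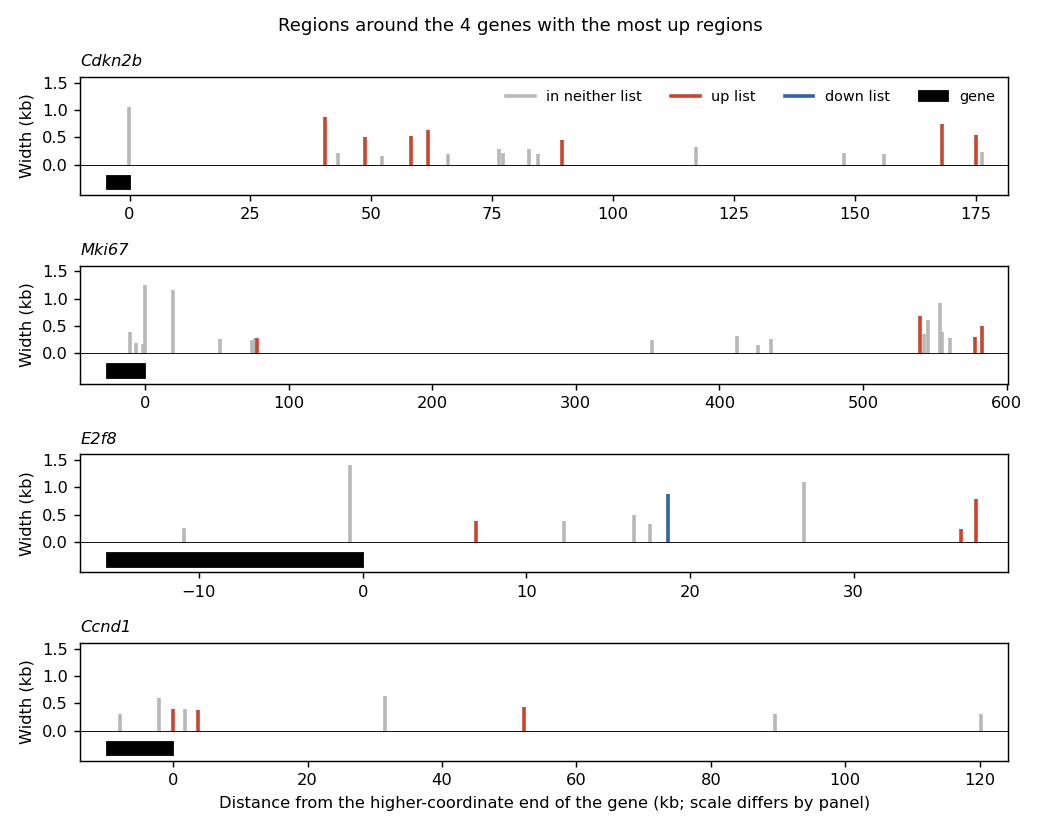
Regions around Cdkn2b, Mki67, E2f8 and Ccnd1, placed by distance in kb from the higher-coordinate end of each gene (black box) on a scale that differs by panel, with the height of each bar giving the region's width in kb. Up regions (red) lay outside the gene except for the Ccnd1 region that overlapped its end, and the down region of E2f8 (blue) lay between up regions.

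Most of the members' up regions lay outside the gene. Of the 137 regions inside a member, 4 were up (2.92%, 1.14 to 7.27), close to the 3.42% of all regions inside genes. At up to 10 kb it was 3 of 37 (8.11%) against 4.4%, and from 10 to 50 kb it was 4 of 43 (9.3%) against 5.92%. From 50 to 100 kb 5 of 21 were up (23.8%, 10.6 to 45.1), against 6.83% of all regions at that distance. Beyond 100 kb it was 6 of 29 (20.7%, 9.85 to 38.4) against 5.64%. The regions beyond 50 kb in the up list belonged to Cdkn2b, Mki67, Ccnd1 and Cdk6, so that the shares in those classes rest on these 4 genes.

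**Figure D3:**
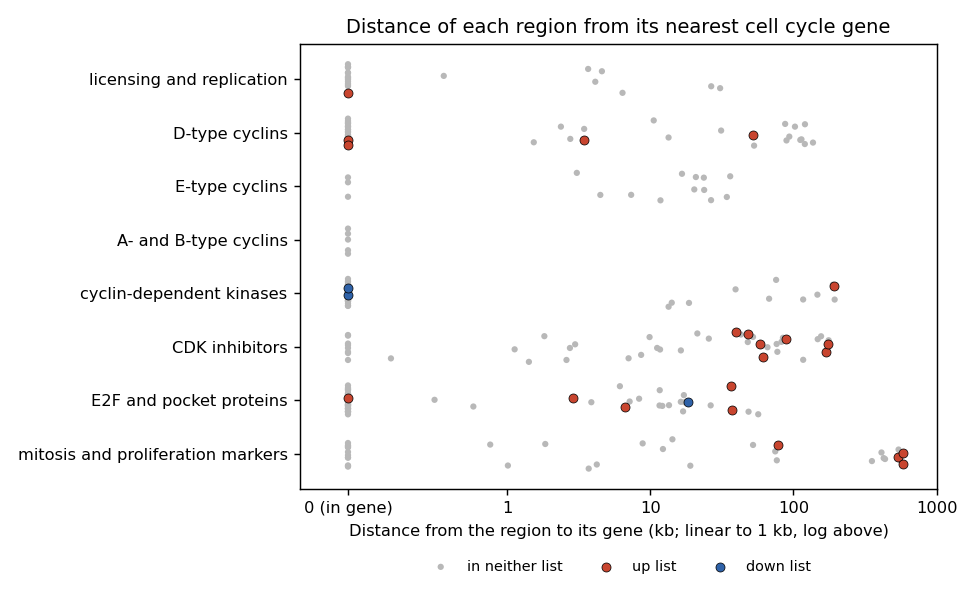
Distance in kb of each of the 267 regions from its nearest cell cycle gene, with 1 row per role (linear to 1 kb, logarithmic above, with vertical jitter within a row). Most up regions (red) lay outside the gene, and 2 of the 3 down regions (blue) lay inside Cdk6.

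By number of regions per gene, members with a single region had 1 up of 8, that of Orc1, and all genes with a single region had 2.13% up. Members with 2 regions had 0 up of 16, against 2.9%, and members with 3 to 5 had 0 of 40, against 3.85%. Members with 6 to 10 regions had 7 up of 67 (10.4%) against 4.9% of all regions of such genes. Members with 11 to 20 had 9 of 77 (11.7%) against 4.85%, and the 2 with 21 or more, Cdk6 and Mki67, had 5 of 59 (8.47%) against 3.93%. Counted by gene, 1 of 8 members with a single region had an up region, against 2.13% of all such genes. It was 0 of 8 with 2 regions, against 5.6%, and 0 of 10 with 3 to 5, against 12.9%. With 6 to 10 regions it was 3 of 8, against 27.0%, and with 11 to 20 it was 3 of 5, against 42.0%. Of the members with 21 or more, 2 of 2 had an up region, against 58.1%.

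**Figure D4:**
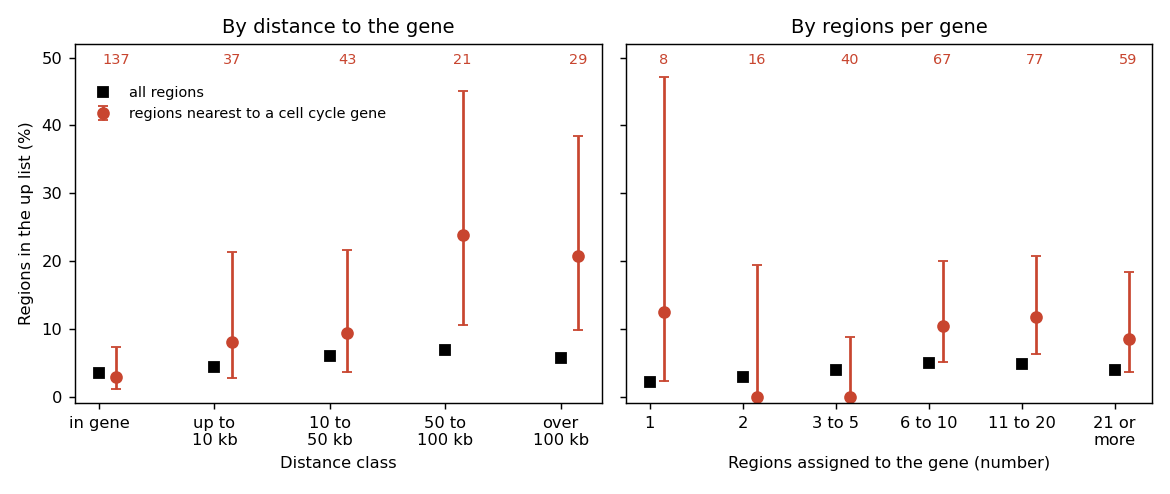
Percent of regions in the up list by distance to the gene and by the number of regions given to the gene, for all regions (black squares) and for regions nearest to a cell cycle gene (red circles, with 95% Wilson intervals and the number of regions above). The member value lay at 2.92% inside genes and at 23.8% from 50 to 100 kb.

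Start sites could be placed for the 36 of the 43 members that the RefSeq promoter table held, and most of these members had an accessible one. Mcm4, Ccnd1, Ccnd2, Ccne2, Ccna2, Rb1 and Aurkb were the other 7. Of the 36, 32 (88.9%, 74.7 to 95.6) had a start site inside a region, against 54.7% of all genes of the table and 97 of 99 (98.0%, 92.9 to 99.4) of the other cell cycle genes listed further on. The regions over members' start sites numbered 36 and had a median width of 1032.5 bp, against 970 bp for all such regions and 439 bp for all member regions. Of these 36 regions 0 were in a list, and over all genes 0.923% of regions over a start site were. Ccnd1, whose higher-coordinate end lay in an up region, is not among the 36 genes. The widest were those of Cdk6 with 2909 bp, Cdkn2c with 2231 bp, Cdkn1b with 1961 bp and Plk1 with 1603 bp. The narrowest, of 385 bp, was at the second start site of Cdkn1a. The 4 genes with no covered start site were Pcna, Cdkn2d, Aurka, whose nearest region was 601 bp away, and Cdc6, whose nearest region was 83 bp away.

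Licensing, mitosis and A- and B-type cyclin genes, 21 in all, had 64 regions, of which 24 (37.5%, 26.7 to 49.7) were at a gene end. The other 22 members, from the D- and E-type cyclins and kinases to the inhibitors, E2Fs and pocket proteins, had 203 regions, of which 26 (12.8%, 8.89 to 18.1) were at a gene end. The number of regions at a gene end was thus similar in the 2 sets, and the second set had more regions away from ends. The up shares of these sets were 7.81% and 8.37%, with overlapping intervals. Up regions were nearest to 2 genes of the first set, Orc1 with 1 and Mki67 with 4, and to 7 genes of the other. The up share of the first set thus rests mostly on Mki67, whose up regions lay 77.8 kb or more from the gene. Over all members 18.7% of regions (14.5 to 23.8) were at a gene end, against 17.1% of all regions. Outside genes, the median distance of member regions was 26025.5 bp, against 19235 bp for all regions.

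Motif matches in the promoters varied between the roles. Windows of 300 bases, from 250 before to 50 past each of the 43 start sites in the table, were searched for the motifs given above on both strands, and a match is a description of letters. An E2F site was found in 15 windows (34.9%, 22.4 to 49.8), against 2.85% of all 21263 windows of protein-coding genes and 5.22% of those with at least as many CpG dinucleotides as the median member. A CHR was found in 14 (32.6%) against 17.6%, and a CCAAT box in 29 (67.4%) against 38.2%. In the windows with at least as many CpG dinucleotides as the median member, these shares were 7.73% and 31.5%. The member shares were taken over all 43 windows, including those with fewer CpG dinucleotides, such as that of Top2a with 16. The backgrounds limited by CpG dinucleotides, for E2F sites too, are therefore not matched to the members. Members had a median of 24 CpG dinucleotides per window, against 13 in all windows.

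In the licensing and replication genes, 7 of 10 windows had an E2F site (70.0%): those of Cdc6, Cdt1, Mcm3, Mcm5, Mcm6 and Orc1 and 1 of the 2 of Mcm7. Mcm2 and Pcna had none. Mcm5, like Mcm6, had a pair of overlapping E2F matches, beginning 153 and 149 bases before the start. In the mitosis genes a CHR was found in 6 of 7 windows and a CCAAT box in all 7, with both in Aurka, Bub1, Cdc20, Mki67, Plk1 and Top2a. Cdc25a had no CHR and was the sole mitosis gene with an E2F site. Both CHR and CCAAT were found in 30.2% of member windows and in 7.11% of all windows.

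Cdk1 and Cdk2 had an E2F site, and of the CDK inhibitors the window of Cdkn2a alone, in 1 of its 2 start sites, did. Among the E2F and pocket protein genes E2F sites were in windows of E2f2, E2f3, E2f7 and Rbl1. In both E2f3 and Cdk1 all 3 kinds of motif lay within the 150 bases before a start site. No E2F site was found in the windows of Ccnd3, Ccne1, Ccnb1 or Ccnb2. The windows of Ccnb1 and Ccnb2 had CCAAT boxes, and Ccnb2 also a CHR.

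**Figure D5:**
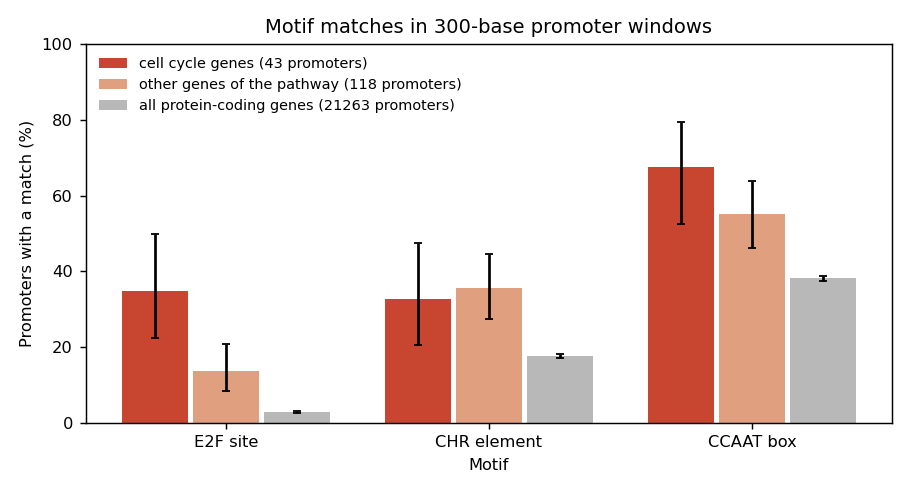
Percent of 300-base promoter windows with an E2F site, a CHR or a CCAAT box, for cell cycle genes (43 windows), other genes of the pathway (118) and all protein-coding genes (21263), with 95% Wilson intervals. E2F sites were in 34.9%, 13.6% and 2.85% of the windows.

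A wider list of 121 other cell cycle genes was counted in the same way. Of these, 116 had a region, and of their 571 regions 20 were up (3.5%, 2.28 to 5.35), against 4.21% of all regions, and 12 down (2.1%, 1.21 to 3.64), against 1.40%. An up region was nearest to 17 of these genes (14.7%), against 16.1% of all genes with a region, and a down region to 8 (6.9%), against 5.39%. Mad1l1, a spindle checkpoint gene, had 4 up regions of 18. Btg1, an antiproliferative gene, had 4 down and 1 up of 63, and Fbxw7, a ubiquitin ligase subunit that targets cyclin E, had 2 down and 1 up of 33. Cdk8, Cdkn3, Cenpe and Dut had 1 up region each, and Anln, Bub1b and Pola1 had 1 down region each. Mad2l1, a spindle checkpoint gene, had 1 up and 1 down of 22. The other replication genes had 8 up and 2 down regions of 171, the other regulators 6 and 7 of 236, and the other mitosis genes 6 and 3 of 164. Of the 100 regions over start sites of these genes, 2 were up and 0 down, and over all genes 0.923% of regions over a start site were in either list.

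The members' up count was recomputed with other ways of tying regions to genes. With the gene whose end was nearest, 22 regions were up, as before, and with regions up to 100 kb from the gene 16 were up (6.72%), against 4.12% of all regions at that limit. When regions were counted for every gene within 10 kb, 9 were up (4.02%), against 3.60% of all regions counted in this way. With 50 kb the share was 4.03%, against 3.97%. With genes of any kind in place of protein-coding genes, 7 up regions were nearest to a member (4.4%), against 4.21% of all regions. The 7 up regions of Cdkn2b then went to Gm12610, the 3 up regions and the down region of E2f8 to Gm2788 or LOC115486410, the 4 up regions of Mki67 to Gm36431 or C030029H02Rik, and the up region of Cdk6 to the pseudogene Gm3053.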

How the data were processed

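ATAC-seq was performed on 4 NK cell cultures, 2 per IL-15 dose, grouped by the dose in their titles. The submitters' processing notes name BWA, MACS2, ArchR, HOMER 4.11.1 and the build mm10, with no role or order. The 3 tables deposited by the authors hold positions only: all accessible regions, and the authors' lists named up and down. Neither the peak calling (on single samples or a pool) nor the differential test and its threshold are given in the sources used here, and the tables hold 0 columns of values per sample. The planned test of the doses could not be run, depth is unknown, and no replicate error exists.

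Region starts were converted to 1-based coordinates. Listed regions were found among all regions by exact position. Regions were given to the protein-coding gene whose span lay nearest, from the RefSeq GRCm38.p6 gene table on 21 chromosomes, ties going to the nearer gene end. Computation used Python 3.11.15, numpy 2.4.6, pandas 2.3.3 and scipy 1.17.1. Intervals are 95% Wilson intervals. Weighted backgrounds average the shares of all regions over classes in the members' proportions. Start sites and promoter sequences came from the RefSeq promoter table. The assignment was tested on simulated data.

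Every member is accounted for in its role. Members singled out for description have a listed region, the most or fewest regions of their role, or none, and the others are given by their number of regions. Of the other pathway genes up to 6 per list are named, those with the most listed regions first. A marker gene of other cells is not reported here. Members, lists and rules were chosen with earlier results of these data known. Alternatives changed the gene assignment, the distance to a gene end, the widths and the members included.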

Additional observations from a re-analysis of the deposited data

How the results depend on the processing

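Of 38 alternatives over 5 results, 23 stayed within 1.5 times the reported count or within the interval of the reported share, and 15 moved further. The count of 22 up regions became 9 when regions were counted for every gene within 10 kb, 4 inside the gene only, 7 with genes of any biotype and 14 among regions of at least the median width of 400 bp, where the up share was 9.52%, against 5.32% of all regions. It was 15 without Cdkn2b and 16 up to 100 kb from the gene. The count of 3 down regions became 5 within 50 kb. The 9 genes with a listed region became 18 within 50 kb and 5 inside the gene only. The up share of 8.24% became 4.02% within 10 kb, 4.03% within 50 kb, 2.92% inside the gene, 4.4% with any biotype and 2.4% without Cdkn2b, Mki67, Ccnd1 and E2f8. The share at a gene end, 18.7%, became 13.1% within 100 bp, 28.8% within 3000 bp and 26.2% for ends of genes of any biotype, where all regions had 11.5%, 26.0% and 23.1%. Fewer regions are counted by construction in the narrower settings. More regions count as at a gene end by construction with the wider distance or with ends of genes of any biotype. With genes of any biotype, the up regions that left the members went to long non-coding RNA genes or a pseudogene, as given above. Leaving out the genes with the most up regions lowers the up share by construction. The cause of the other moves was not tested. Alternatives for the up share and those that leave out members were chosen after seeing the data. No paired analysis was possible because the tables hold no values per sample. For the same reason other normalizations, count filters and leaving out a replicate were not run, nor was a stricter threshold, since the lists carry no score. Depth is unknown, so a region in neither list cannot be read as unchanged.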
